A study of Mus musculus with 24 samples.

Results

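Matricellular proteins and matrix-crosslinking enzymes were followed as 10 genes across 8 groups of mouse pancreas, one member per row of a table of 36806 genes. The 7 matricellular or adhesive genes were Tnc, Postn, Thbs1, Sparc, Fn1, Tgfbi and Spp1, and the 3 crosslinking genes were Lox, Loxl1 and Loxl2. They were chosen by gene symbol as genes that pancreatic stellate cells, resident fibroblast-like cells of the gland, are known to make. All 10 had a row, none was at 0 in any library, and all passed the filter on low values. The list was drawn up with earlier results of these data known, among them higher Postn and Sparc in saline Nr5a2 +/- pancreas, so that genotype difference is given below as a description. Membership went by name, with no threshold on any value.

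RNA from whole pancreas of C57BL mice was sequenced after poly(A) selection. The groups were Nr5a2 +/- mice (HET) given saline, and HET mice killed 8 h, 24 h and 48 h after the first caerulein injection. The same 4 conditions were sampled in Nr5a2 +/+ mice (WT), with 3 animals and 3 libraries in each group. Caerulein, an analog of the gut hormone cholecystokinin, was given as 7 hourly injections of 50 ug/kg to set off a mild pancreatitis. NR5A2 is a nuclear receptor that acts as a transcription factor in acinar cells, and the labels name no driver that would limit the mutation to a tissue. They state neither the animals' age nor what the mutated allele lacks.

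Matricellular proteins are secreted into the matrix and act mainly on cell adhesion and signalling, with little structural role of their own. Tenascin C, periostin and thrombospondin 1 are scarce in most resting adult tissues and appear around injured or remodelling ones. Lysyl oxidases oxidise lysines of collagen and elastin, which then join into the covalent crosslinks that stiffen a scar. In the pancreas, activated stellate cells are the best known source of many of these proteins, while osteopontin (Spp1) is also made by duct cells and macrophages, and fibronectin (Fn1) and TGFBI by macrophages.

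The 10 protein-coding genes lie on different chromosomes, Fn1 on 1, Thbs1 on 2, Postn on 3, Tnc on 4, Spp1 on 5, Loxl1 on 9, Sparc on 11, Tgfbi on 13, Loxl2 on 14 and Lox on 18 (GRCm38.p6). RefSeq start sites on GRCm38.p6 were matched for 5 of the 9 genes looked up, with Lox left out, giving 8 windows of 250 bases before and 50 bases after a start. The 3 windows that held any of 4 motifs searched are printed, since Tnc and Postn had the 2 largest changes in HET over 8 h to 48 h and Spp1 reached the highest level. Capitals mark the match, a TATA box (TATATAA, gene strand) in Tnc and Postn and a RUNX motif (AACCACA, both strands) in Spp1. The Tnc window is chr4:64046887-64047186 on the minus strand, the Postn window chr3:54360857-54361156 on the plus strand and the Spp1 window chr5:104434861-104435160 on the plus strand, each 5′ to 3′.
Tnc: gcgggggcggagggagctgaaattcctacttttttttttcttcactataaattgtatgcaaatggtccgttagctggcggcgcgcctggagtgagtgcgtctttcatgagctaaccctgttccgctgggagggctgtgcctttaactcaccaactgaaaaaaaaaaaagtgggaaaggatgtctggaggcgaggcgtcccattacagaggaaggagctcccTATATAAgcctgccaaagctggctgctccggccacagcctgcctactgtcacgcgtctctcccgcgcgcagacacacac
Postn: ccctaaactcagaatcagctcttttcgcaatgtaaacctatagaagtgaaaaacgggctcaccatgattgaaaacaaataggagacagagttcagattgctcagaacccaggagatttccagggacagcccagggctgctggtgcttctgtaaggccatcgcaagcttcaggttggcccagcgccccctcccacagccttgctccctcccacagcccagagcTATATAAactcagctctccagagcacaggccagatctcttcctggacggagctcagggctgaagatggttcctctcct
Spp1: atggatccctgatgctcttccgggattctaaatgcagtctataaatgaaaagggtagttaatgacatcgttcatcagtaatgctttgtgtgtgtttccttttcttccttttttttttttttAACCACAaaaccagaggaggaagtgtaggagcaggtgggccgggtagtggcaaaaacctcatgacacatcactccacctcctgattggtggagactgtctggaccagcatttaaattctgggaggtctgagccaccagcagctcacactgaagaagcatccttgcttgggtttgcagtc

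The TATA box lay at -29 to -23 from the Tnc start and at -28 to -22 from the Postn start, and 2.2% of 32851 RefSeq windows of the same length held these letters on the gene strand. The RUNX letters lay at -129 to -123 from the Spp1 start, and 5.27% of all windows held them on either strand. Neither the AP-1 motif TGANTCA (7.81% of windows, both strands) nor the NR5A2 motif CAAGGTCA (1.56%, both strands) was found in the 8 windows. A match is a description of letters, and no match says only that they are absent from these windows.

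Stellate cell and fibroblast markers were read out first. Of the 12 markers, 11 were above 0 in all 24 libraries, and Gfap, a glial filament that quiescent stellate cells can express, reached at most 0.944 FPKM and was listed at 0 in 8 libraries. A listed 0 need not mean low expression here, since the acinar enzyme genes Ctrb1 and Amy2a5 are listed at 0 in all 24 libraries. FPKM, fragments scaled to transcript length and library size, is a level that can be compared between genes. Values come from whole tissue, so fewer cells of a type and less RNA per cell cannot be told apart, and no level below can be assigned to stellate cells. Nr5a2 itself was 8.01 to 9.09 FPKM in HET saline libraries and 9.26 to 12.6 in WT saline libraries. It was 1.88 to 2.15 in HET and 2.25 to 3.2 in WT at 8 h, and the ranges of HET and WT overlapped at 24 h and 48 h. Saline and 24 h libraries followed an earlier TruSeq guide (10 PCR cycles) and 8 h and 48 h libraries the v2 guide (8 cycles), except that 1 WT saline library is in neither list. The number of that library matches none in the lists. Comparisons of 48 h with 8 h therefore stay within a guide, as does 24 h with saline in HET, while for 24 h with saline in WT this is known of 5 of the 6 libraries. Differences of 8 h or 48 h from saline or from 24 h mix time and guide, which cannot be told apart.

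**Figure D1:**
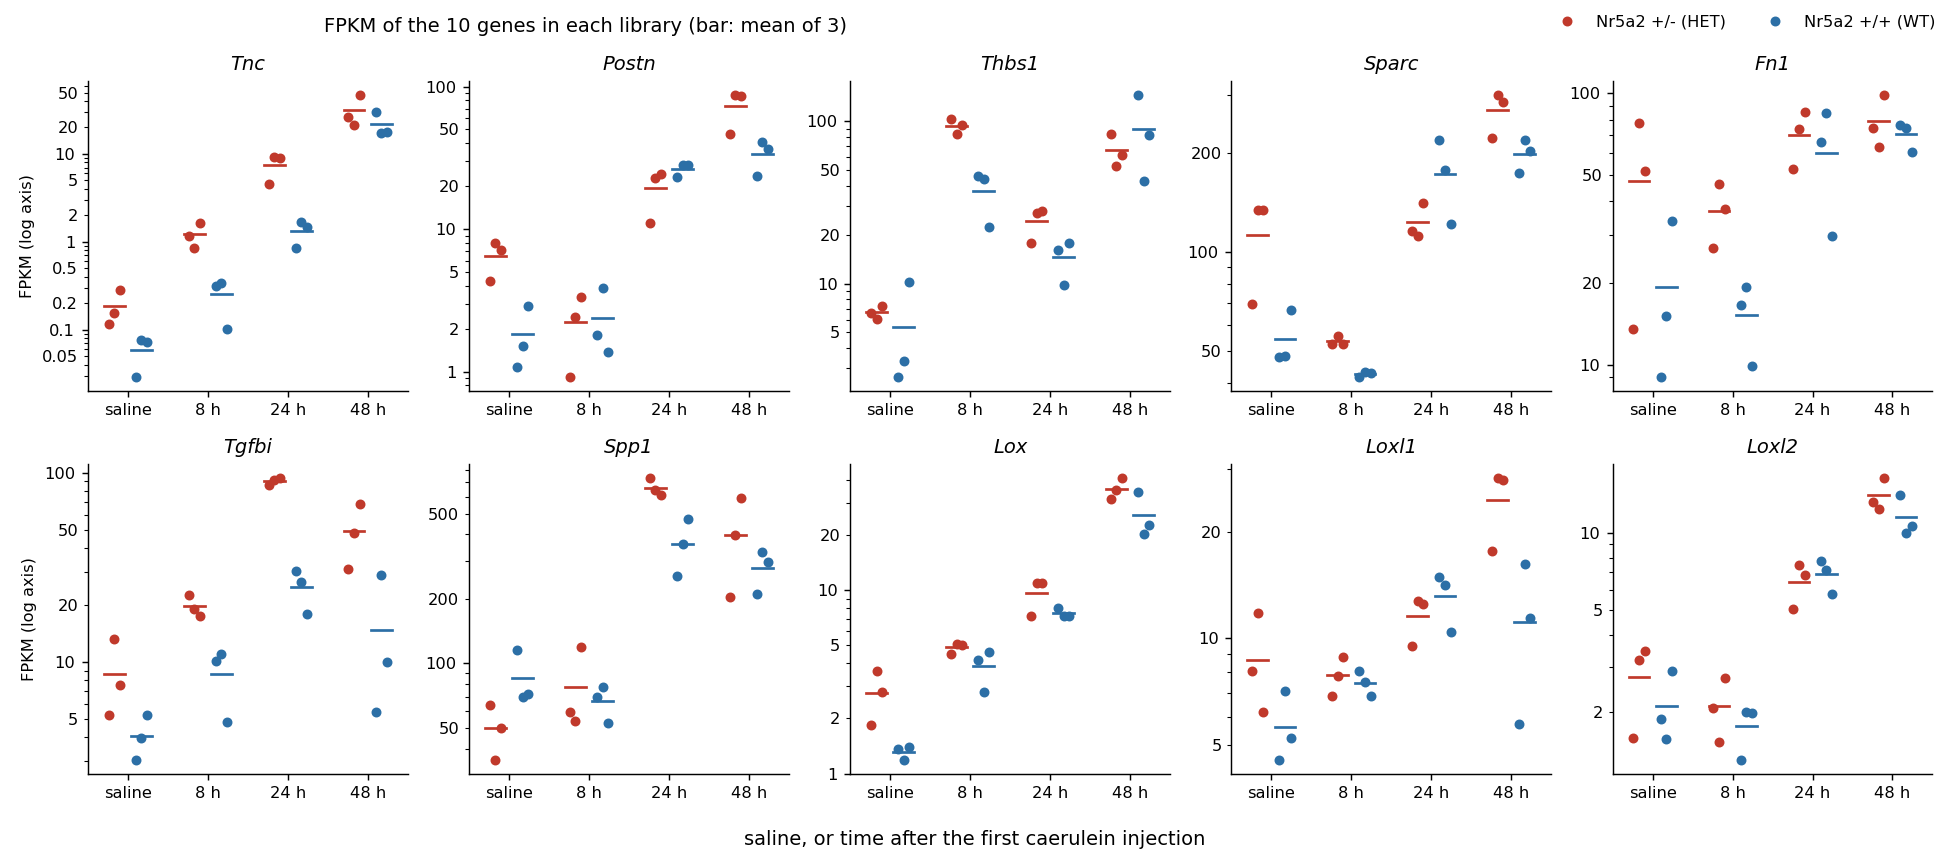
FPKM on a log axis for each of the 10 genes in 24 libraries, by condition, with HET (red) left of WT (blue) and a bar at the mean of 3 libraries. Tnc spans 0.0292 to 46.7 FPKM, whereas Sparc never leaves the range of 41.9 to 299 FPKM.

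Levels per length set the genes apart before any comparison. In saline WT pancreas Spp1 averaged 85.6 ± 25.5 FPKM and Sparc 54.4 ± 10.6 (SD, n = 3), while Tnc averaged 0.0592 ± 0.026. The highest library over the lowest came to 94.4-fold for Postn, 54.3-fold for Thbs1, 34.3-fold for Lox and 30.6-fold for Tgfbi. It came to 20.6-fold for Spp1, 12.5-fold for Loxl2, 10.9-fold for Fn1, 7.14-fold for Sparc and 6.25-fold for Loxl1. Tnc reached at least 1 FPKM in 13 of 24 libraries and Postn in 23, and the other 8 genes in all 24. The highest library was a HET 48 h library for 7 genes, a HET 24 h library for Tgfbi and Spp1, and a WT 48 h library for Thbs1.

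At 24 h against saline 7 of the 10 genes rose in HET pancreas and all 10 in WT pancreas, and at 48 h against 8 h 8 of 10 rose in each. Each gene was fitted on log2(FPKM + 1) with limma over all 8 groups, and called when the Benjamini-Hochberg adjusted p over the 12849 to 12867 genes tested was under 0.05. Of all genes 23.9% were higher in HET at 24 h, with a median difference of 1.46 for the 10 genes and 0.06 for all genes tested. In WT 20.5% were higher, with medians of 1.64 for the 10 and 0.05 for all. At 48 h against 8 h, 23.4% of all genes were higher in HET, with medians of 2.29 and -0.03, and 22.5% in WT, with medians of 2.18 and 0.01. Scaled to totals without digestive enzyme and Reg genes, all 10 were called in HET at 24 h, in a fit where the median of all genes was 0.83 and 8968 genes were called in either direction, beside 5626 without that scaling. Since the list was drawn up with earlier results known, these counts are not independent evidence of its direction. Comparisons that use the same saline or 8 h libraries share them.

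Marker lists moved over the same intervals. At 24 h against saline 8 of 12 macrophage markers were higher in HET and 11 of 12 in WT, and of 11 stellate and fibroblast markers tested 1 was higher and 2 lower in HET and 7 were higher in WT. The acinar markers tested were all lower, 7 in HET and 6 in WT, with median differences of -5.00 and -3.28. Of 7 adipocyte markers 5 were lower in HET and 3 higher in WT. At 48 h against 8 h macrophage markers were higher for 10 of 12 in HET and for 8 of 12 in WT, where 1 was lower, and stellate markers for 8 of 11 in HET and 7 of 11 in WT. All 8 acinar markers tested were lower in HET, while the median difference of the 6 tested in WT was -0.28. Among all genes, 19.8% were lower in HET and 18.7% in WT at 24 h, and 28.6% in HET and 27.4% in WT at 48 h against 8 h. The part of these lists in the rises of the 10 genes was not tested, apart from the adipocyte covariate.

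Tenascin C (Tnc), a large hexameric glycoprotein that loosens cell contact with fibronectin, had the widest range of the 10 genes. In HET libraries it was 0.115, 0.153 and 0.284 FPKM in saline, 1.16, 0.842 and 1.63 at 8 h, 4.51, 9.2 and 8.97 at 24 h, and 26, 21.5 and 46.7 at 48 h. In WT libraries it was 0.0292, 0.0759 and 0.0725 FPKM in saline, 0.317, 0.338 and 0.102 at 8 h, 0.847, 1.67 and 1.49 at 24 h, and 30.2, 17.3 and 17.9 at 48 h. Every HET library lay above every WT library in saline, at 8 h and at 24 h, and the genotypes overlapped at 48 h. Low values stepped in whole fragments, which puts the WT saline libraries at an estimated 1.3 to 2.5 fragments of Tnc each and the HET saline libraries at 2.5 to 11. No fold against saline is therefore given, and log2(FPKM + 1) understates the change of so low a gene.

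Tnc rose by 2.80 ± 0.27 (log2, SE) in HET at 24 h against saline (adjusted p = 1.75e-07, limma) and by 1.12 ± 0.27 in WT (adjusted p = 0.00255). At 24 h HET libraries averaged 7.56 ± 2.64 FPKM and WT libraries 1.34 ± 0.433 (SD, n = 3 each), a ratio of means of 5.64. The log2 difference of 1.84 ± 0.27 was past the threshold (adjusted p = 0.000816) and ranked 20 among 12858 genes by p. The difference between the HET and WT responses was itself tested and came to 1.68 ± 0.38 (adjusted p = 0.0239). Adding 1 to FPKM compresses the change more in WT, where levels were lower, so the scale enlarges this difference. It was past the threshold neither with a pseudocount of 0.1 (1.59, adjusted p = 0.121) nor with the adipocyte list mean as a covariate (1.11, adjusted p = 0.316), nor without each of 4 libraries (1.52 to 1.66), while the 24 h genotype difference was called in every setting tried.

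At 8 h the estimated fragments of Tnc numbered 100 to 160 in HET libraries and 8.3 to 39 in WT libraries. The genotype difference there was 0.81 ± 0.27 on the log2 scale and missed the threshold (adjusted p = 0.549). Between 8 h and 48 h Tnc rose by 3.81 ± 0.27 in HET (adjusted p = 8.34e-10) and by 4.15 ± 0.27 in WT (adjusted p = 2.58e-10). At 48 h the means were 31.4 ± 13.4 FPKM in HET and 21.8 ± 7.28 in WT (SD, n = 3 each), with a difference of 0.48 ± 0.27 (adjusted p = 0.266). Against saline, 48 h Tnc ranked second of all genes by p in both HET (4.70 ± 0.27) and WT (4.38 ± 0.27), comparisons that also cross the library guides.

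Periostin (Postn), which helps collagen fibrils assemble and brings BMP1 to lysyl oxidase, followed another course. HET libraries had 4.35, 8.04 and 7.08 FPKM in saline, 0.923, 2.41 and 3.32 at 8 h, 11.1, 22.7 and 24.4 at 24 h, and 46.8, 87.1 and 85.9 at 48 h. WT libraries had 1.08, 1.51 and 2.91 FPKM in saline, 1.82, 3.89 and 1.38 at 8 h, 23.3, 28.1 and 28 at 24 h, and 23.5, 41 and 36.6 at 48 h. HET libraries stood above WT libraries in saline and at 48 h, and overlapped them at 8 h and at 24 h.

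In saline the HET mean was 6.49 ± 1.91 FPKM and the WT mean 1.83 ± 0.957 (SD, n = 3 each), a log2 difference of 1.42 ± 0.36 that was among the results known when the genes were chosen. Postn rose by 24 h in both genotypes, by 1.41 ± 0.36 in HET (adjusted p = 0.00398) and by 3.32 ± 0.36 in WT (adjusted p = 1.72e-06). The difference between these responses was -1.92 ± 0.51, which contains the known saline values, and missed the threshold (adjusted p = 0.0551). Between 8 h and 48 h it rose by 4.55 ± 0.36 in HET (adjusted p = 4.77e-09) and by 3.40 ± 0.36 in WT (adjusted p = 2.41e-07). The 48 h means of 73.3 ± 22.9 FPKM in HET and 33.7 ± 9.1 in WT (SD, n = 3 each) differed by 1.08 ± 0.36, outside the threshold (adjusted p = 0.0582). It was called in the scaling without enzyme and Reg genes (1.56, adjusted p = 0.0189) and with the adipocyte list mean as a covariate (1.27, adjusted p = 0.0164).

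Thrombospondin 1 (Thbs1), which activates latent TGF-beta and binds CD47 and CD36, had the largest change of the list at 8 h against saline in both genotypes. It had 6.6, 6.09 and 7.26 FPKM in HET saline libraries, 103, 83.7 and 94.4 in HET at 8 h, 17.7, 27.1 and 28.1 at 24 h, and 83.6, 53.3 and 62.4 at 48 h. WT libraries had 2.67, 3.33 and 10.2 FPKM in saline, 45.7, 44.2 and 22.3 at 8 h, 16, 9.8 and 17.7 at 24 h, and 145, 42.9 and 82.6 at 48 h. In both genotypes every 24 h library lay below every 8 h and 48 h library, an order in which time and library guide cannot be told apart. HET libraries were clear of WT libraries, above them, at 8 h only.

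Across the library guides, Thbs1 rose by 3.63 ± 0.40 at 8 h against saline in HET (adjusted p = 3.13e-07) and by 2.70 ± 0.40 in WT (adjusted p = 1.4e-05). The genotype difference at 8 h was 1.36 ± 0.40 and was not called (adjusted p = 0.406). Between 8 h and 48 h the change was -0.51 ± 0.40 in HET (adjusted p = 0.31) and a rise of 1.15 ± 0.40 in WT (adjusted p = 0.0238), and the difference of these changes was -1.66 ± 0.57 (adjusted p = 0.197). The WT rise was past the threshold neither without the 48 h library at 145 FPKM (0.73, adjusted p = 0.154) nor without each of 2 other libraries (0.82 and 1.13), nor with the spread of the 2 groups alone (adjusted p = 0.0922). The HET change had the opposite sign, 0.46, in the scaling without enzyme and Reg genes, where the median of all genes was 0.68. Against saline at 24 h Thbs1 rose by 1.70 ± 0.40 in HET (adjusted p = 0.00214) and by 1.42 ± 0.40 in WT (adjusted p = 0.009). The WT call was lost without the saline library at 2.67 FPKM (1.12, adjusted p = 0.0556).

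Sparc (osteonectin), a collagen-binding glycoprotein of stromal cells, was abundant in every library. It had 69.8, 134 and 134 FPKM in HET saline libraries, 52.6, 55.7 and 52.5 at 8 h, 116, 112 and 141 at 24 h, and 222, 299 and 285 at 48 h. In WT it had 48.1, 48.5 and 66.7 FPKM in saline, 41.9, 43.3 and 42.9 at 8 h, 218, 177 and 122 at 24 h, and 174, 219 and 203 at 48 h. HET libraries were above WT libraries in saline, at 8 h and at 48 h and overlapped them at 24 h, where the WT mean was the larger.

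The saline means of 113 ± 37.1 FPKM in HET and 54.4 ± 10.6 in WT (SD, n = 3 each) differed by 0.99 ± 0.23 on the log2 scale, again a value known at the choice of genes. At 24 h against saline the HET change of 0.18 ± 0.23 was not called (adjusted p = 0.552), and Sparc rose by 1.62 ± 0.23 in WT (adjusted p = 2.2e-05). The difference of the responses was -1.44 ± 0.32 (adjusted p = 0.0226) and contains the known saline values. The HET change was called in the scaling without enzyme and Reg genes (1.30, adjusted p = 0.00437) and with the adipocyte list mean as a covariate (0.60, adjusted p = 0.0455). The difference of the responses was not called with the adipocyte covariate (-0.67, adjusted p = 0.406), with the scaling without enzyme and Reg genes (-1.27, adjusted p = 0.317) with the spread of the 4 groups alone (adjusted p = 0.143) or without each of 6 libraries (-1.40 to -1.25). Between 8 h and 48 h Sparc rose by 2.29 ± 0.23 in HET (adjusted p = 8.36e-08) and by 2.19 ± 0.23 in WT (adjusted p = 1.65e-07).

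Fibronectin (Fn1), the adhesive glycoprotein on which other matrix assembles, varied widely between animals of a group. HET saline libraries had 13.6, 77.6 and 51.9 FPKM, and WT saline libraries 9.06, 15.1 and 33.9. At 8 h the values were 26.9, 46.5 and 37.6 FPKM in HET and 16.6, 19.4 and 9.91 in WT, with no overlap. Means at 24 h and 48 h were 70.3 ± 16.5 and 78.7 ± 17.9 FPKM in HET and 60.2 ± 28 and 70.7 ± 8.49 in WT (SD, n = 3 each). The HET changes of 0.83 ± 0.52 at 24 h against saline (adjusted p = 0.205) and 1.08 ± 0.52 at 48 h against 8 h (adjusted p = 0.0881) were not called, though both were with the adipocyte covariate (1.53, adjusted p = 0.0461, and 1.63, adjusted p = 0.0191). In WT Fn1 rose by 1.66 ± 0.52 (adjusted p = 0.0159) and by 2.18 ± 0.52 (adjusted p = 0.0017) over the same intervals. The first of these calls was lost with the adipocyte covariate (1.07, adjusted p = 0.17), with the spread of the 2 groups alone (adjusted p = 0.0705) and without each of 3 libraries (1.24 to 1.53). The genotype differences were 1.14 ± 0.52 in saline and, after caerulein, 1.24 ± 0.52 (8 h), 0.32 ± 0.52 (24 h) and 0.14 ± 0.52 (48 h), none of them called.

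TGFBI (Tgfbi, also called beta-ig-h3), an integrin-binding matrix protein named for its induction by TGF-beta, was called in HET against WT at both 24 h and 48 h. HET libraries had 5.26, 13.2 and 7.58 FPKM in saline, 22.5, 19.1 and 17.6 at 8 h, 86.2, 91.8 and 93.4 at 24 h, and 31, 48.1 and 68.1 at 48 h. WT libraries had 3.05, 3.96 and 5.26 FPKM in saline, 10.1, 11 and 4.83 at 8 h, 30.2, 26.4 and 18 at 24 h, and 5.47, 28.8 and 9.97 at 48 h. At 8 h, 24 h and 48 h each HET library was above each WT library.

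At 24 h Tgfbi averaged 90.5 ± 3.78 FPKM in HET and 24.9 ± 6.24 in WT (SD, n = 3 each), a ratio of 3.63 and a log2 difference of 1.85 ± 0.43 (adjusted p = 0.0135). At 48 h it averaged 49.1 ± 18.6 FPKM in HET and 14.7 ± 12.4 in WT (SD, n = 3 each), with a difference of 1.89 ± 0.43 (adjusted p = 0.00756). The 48 h call was lost without the WT library at 5.47 FPKM (1.40, adjusted p = 0.0674), without the HET library at 68.1 FPKM (1.63, adjusted p = 0.0617), and with the spread of these 2 groups alone (adjusted p = 0.119). The 8 h difference of 1.17 ± 0.43 was not called (adjusted p = 0.685). Tgfbi rose by 3.32 ± 0.43 in HET at 24 h against saline (adjusted p = 5.31e-06) and by 2.34 ± 0.43 in WT (adjusted p = 0.000281), and the difference of these rises was 0.98 ± 0.60 (adjusted p = 0.421). At 48 h against 8 h it rose by 1.21 ± 0.43 in HET (adjusted p = 0.0228), and the WT change of 0.48 ± 0.43 was not called (adjusted p = 0.369). The HET call was lost without each of 4 libraries (0.94 to 1.19).

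Osteopontin (Spp1), a phosphoprotein that binds integrins and CD44, had the highest single value of the 10 genes and the highest mean in 6 of 8 groups. Its mean was below that of Sparc in HET saline pancreas and below that of Thbs1 in HET pancreas at 8 h. HET libraries had 63.7, 35.5 and 50.1 FPKM in saline, 59.5, 54.1 and 119 at 8 h, 730, 643 and 607 at 24 h, and 205, 396 and 592 at 48 h. WT libraries had 115, 69.8 and 71.9 FPKM in saline, 69.4, 77.3 and 52.8 at 8 h, 255, 359 and 473 at 24 h, and 210, 331 and 297 at 48 h. HET libraries lay below WT libraries in saline and above them at 24 h, and overlapped them at the other times.

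Neither genotype difference of Spp1 was called, at -0.77 ± 0.35 in saline (adjusted p = 0.237) and 0.90 ± 0.35 at 24 h (adjusted p = 0.145). The rise at 24 h against saline was 3.74 ± 0.35 in HET (adjusted p = 1.69e-07) and 2.06 ± 0.35 in WT (adjusted p = 0.000164). Their difference of 1.67 ± 0.50 missed the threshold (adjusted p = 0.0807). Between 8 h and 48 h Spp1 rose by 2.31 ± 0.35 in HET (adjusted p = 2.04e-05) and by 2.05 ± 0.35 in WT (adjusted p = 8.22e-05).

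Lysyl oxidase (Lox), the secreted copper amine oxidase that starts collagen crosslinking, fell into 4 separate ranges by condition in each genotype. HET libraries had 1.85, 3.63 and 2.78 FPKM in saline, 4.51, 5.11 and 5.03 at 8 h, 7.25, 10.9 and 10.9 at 24 h, and 31.3, 35 and 40.8 at 48 h. WT libraries had 1.37, 1.19 and 1.39 FPKM in saline, 4.14, 2.8 and 4.58 at 8 h, 8, 7.22 and 7.2 at 24 h, and 34.3, 20.3 and 22.7 at 48 h. Saline ranges were the lowest and 48 h ranges the highest, with 8 h below 24 h, an order that also crosses the library guides. Between genotypes only the saline groups were apart, with HET above WT.

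Lox rose at 24 h against saline by 1.52 ± 0.20 in HET (adjusted p = 7.27e-06) and by 1.87 ± 0.20 in WT (adjusted p = 1.38e-06). It rose between 8 h and 48 h by 2.63 ± 0.20 in HET (adjusted p = 2.5e-09) and by 2.45 ± 0.20 in WT (adjusted p = 6.73e-09). Already at 8 h, across the library guides, it was higher than in saline, by 0.68 ± 0.20 in HET (adjusted p = 0.00756) and by 1.05 ± 0.20 in WT (adjusted p = 0.000208). The HET call was lost without the saline library at 1.85 FPKM (0.49, adjusted p = 0.0556). The rise of 3.50 ± 0.20 in WT at 48 h against saline, which also crosses the guides, ranked first of 12858 genes by p. The genotype difference in saline was 0.67 ± 0.20 and was not called (adjusted p = 0.0782). It was called with a pseudocount of 0.1 (0.96, adjusted p = 0.0344) and without the HET saline library at 1.85 FPKM (0.85, adjusted p = 0.0342). The 48 h difference of 0.48 ± 0.20 was not called (adjusted p = 0.124), but was in the scaling without enzyme and Reg genes (0.96, adjusted p = 0.0114).

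Lysyl oxidase-like 1 (Loxl1), best known for crosslinking elastin, had the smallest range of the 10 genes and was called in HET against WT at 48 h. HET libraries had 8.06, 11.8 and 6.17 FPKM in saline, 6.88, 7.82 and 8.83 at 8 h, 9.49, 12.7 and 12.5 at 24 h, and 17.6, 28.3 and 27.9 at 48 h. WT libraries had 4.53, 7.1 and 5.21 FPKM in saline, 8.08, 7.53 and 6.85 at 8 h, 14.9, 14.1 and 10.4 at 24 h, and 5.72, 16.2 and 11.4 at 48 h. The genotypes overlapped in saline, at 8 h and at 24 h, and every HET library was above every WT library at 48 h.

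At 48 h Loxl1 averaged 24.6 ± 6.07 FPKM in HET and 11.1 ± 5.25 in WT (SD, n = 3 each), a log2 difference of 1.15 ± 0.28 (adjusted p = 0.0108). This call was lost without the WT library at 5.72 FPKM (0.78, adjusted p = 0.0925), without the HET library at 28.3 (adjusted p = 0.0516) or at 27.9 FPKM (adjusted p = 0.0691), and with the spread of the 2 groups alone (adjusted p = 0.12). Between 8 h and 48 h Loxl1 rose by 1.51 ± 0.28 in HET (adjusted p = 0.000135), and the WT change of 0.41 ± 0.28 was not called (adjusted p = 0.228). The WT change was called in the scaling without enzyme and Reg genes (1.01, adjusted p = 0.0252) and without the 48 h library at 5.72 FPKM (0.79, adjusted p = 0.0148). The difference of the HET and WT changes, 1.10 ± 0.39, was not called either (adjusted p = 0.213). At 24 h against saline the HET change was 0.41 ± 0.28 (adjusted p = 0.247), and Loxl1 rose by 1.10 ± 0.28 in WT (adjusted p = 0.00387). With the adipocyte covariate the HET change was called (1.02, adjusted p = 0.00315) and the WT change was not (0.59, adjusted p = 0.0746).

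Lysyl oxidase-like 2 (Loxl2), which crosslinks collagen IV and fibrillar collagen, had no genotype difference called. Its means in saline and at 8 h, 24 h and 48 h were 2.74 ± 1.01, 2.1 ± 0.586, 6.45 ± 1.25 and 14 ± 2.06 FPKM in HET (SD, n = 3 each). In WT they were 2.11 ± 0.692, 1.76 ± 0.396, 6.87 ± 1.01 and 11.5 ± 2.16 FPKM. It rose at 24 h against saline by 1.02 ± 0.22 in HET (adjusted p = 0.000846) and by 1.35 ± 0.22 in WT (adjusted p = 8.44e-05). From 8 h to 48 h it rose by 2.28 ± 0.22 in HET (adjusted p = 4.95e-08) and by 2.18 ± 0.22 in WT (adjusted p = 9.54e-08). Genotype differences lay between -0.09 ± 0.22 at 24 h and 0.26 ± 0.22 at 48 h.

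**Figure D2:**
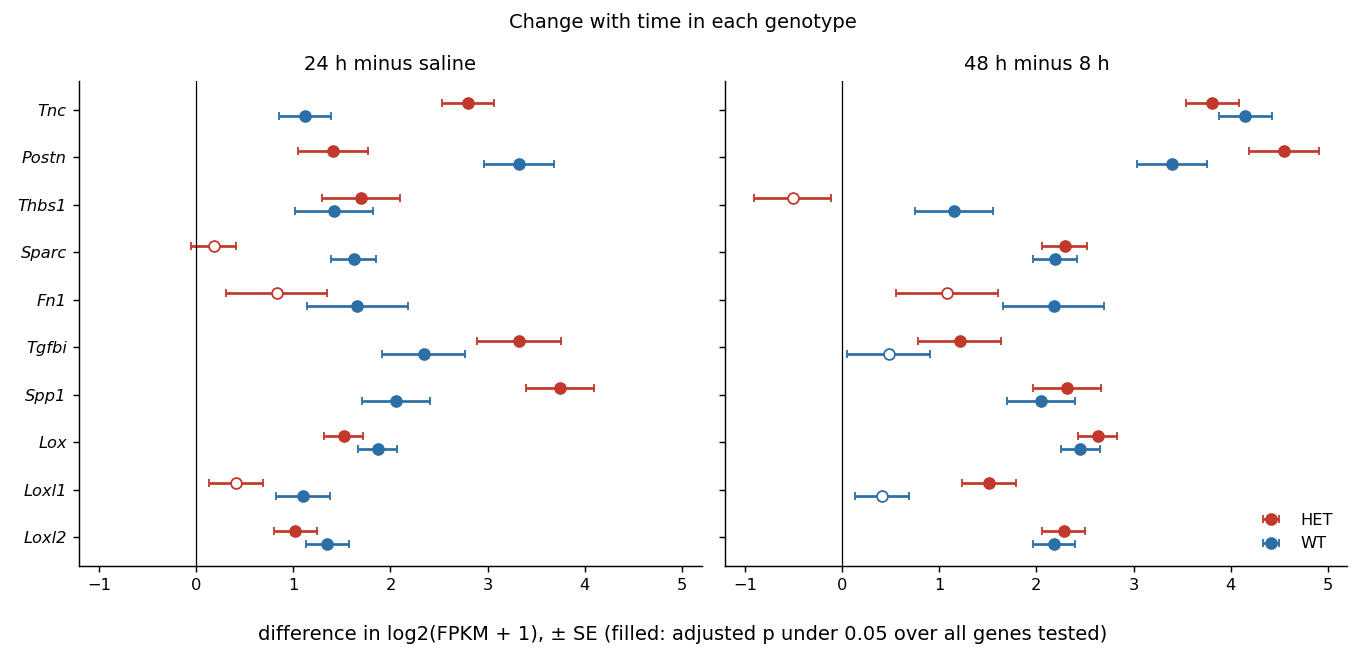
Difference in log2(FPKM + 1) ± SE between 24 h and saline (left) and between 48 h and 8 h (right) for each gene, HET (red) above WT (blue), filled where the adjusted p was under 0.05. At 24 h Tnc shows 2.80 in HET and 1.12 in WT, and Sparc 0.18 in HET and 1.62 in WT.

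Counted by genotype, few of the 10 genes were called. In saline 2 of 10 genes were called higher in HET (Postn and Sparc), against 1.15% of all genes, in a contrast whose results were partly known. At 8 h limma called 0 of 10, against 0.218% of all genes in either direction, and 4 of the 10 had an unadjusted p under 0.05 (Tnc, Thbs1, Fn1 and Tgfbi), each positive. The largest of these p, that of Fn1 (0.0274, limma), ranked 460 of 12861 genes, so the 0.218% is not their background. The share of all genes at an unadjusted p under 0.05 was not counted, so the 4 of 10 are not read as a result. At 24 h the 2 called higher were Tnc and Tgfbi, against 3.5% of all genes, and at 48 h they were Tgfbi and Loxl1, against 5.85%. No member was called lower in HET under any condition. The share of all genes called lower was 1.21% (saline), 0.0467% (8 h), 3% (24 h) and 6.37% (48 h). Beside shares this small, 0 of 10 genes does not stand out. The median difference of the 10 was 0.60, 0.31, 0.32 and 0.45 in saline and at 8 h, 24 h and 48 h, and that of all genes lay between 0.00 and 0.03.

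The tests of a difference between genotypes in the change with time called 2 members at 24 h against saline. Tnc was called higher, where 1.07% of all genes were, and Sparc lower, where 1.24% were. The Sparc value contains the saline difference known when the genes were chosen, so that share is not a fair background for it. For 48 h against 8 h limma called 0 of 10, against 0.723% of all genes in either direction, and 3 of the 10 had an unadjusted p under 0.05 (Postn, Thbs1 and Loxl1). The largest of these p, that of Postn (0.0373, limma), ranked 1374 of 12860 genes, so the 0.723% is not their background. Here too the share of all genes at an unadjusted p under 0.05 was not counted, and the 3 of 10 are not read as a result.

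Across the library guides, 4 genes were called higher and 2 lower in HET at 8 h against saline, where 30.7% of all genes were higher and 24.5% lower. The 4 were Thbs1, Tnc (0.89 ± 0.27), Tgfbi (1.18 ± 0.43) and Lox, while Postn fell by 1.26 ± 0.36 (adjusted p = 0.00612) and Sparc fell by 1.00 ± 0.23 (adjusted p = 0.000948). Both falls are measured from the HET saline values known when the genes were chosen, and are given as a description. The WT changes of 0.23 ± 0.36 for Postn and -0.33 ± 0.23 for Sparc were not called. In the scaling without enzyme and Reg genes the calls of Postn, Sparc and Tgfbi were lost (adjusted p of 0.0522, 0.0693 and 0.0652 in that order). In WT at 8 h 2 were higher, Thbs1 and Lox, where 28.2% of all genes were. At 48 h against saline 9 of 10 were higher in HET, where 24.2% of all genes were, and Fn1 was not called (1.00 ± 0.52, adjusted p = 0.126). All 10 were higher in WT, where 11.8% of all genes were, with Tgfbi (1.36 ± 0.43, adjusted p = 0.0249) and Loxl1 (0.79 ± 0.28, adjusted p = 0.0422) nearest to the threshold. In WT the Tgfbi call was lost with the spread of the 2 groups alone (adjusted p = 0.139) and without each of 3 libraries (0.75 to 1.35, the lowest without the 48 h library at 28.8 FPKM). The Loxl1 call was lost with no filter (adjusted p = 0.0721), with the spread of the 2 groups alone (adjusted p = 0.174) and without each of 4 libraries (0.48 to 0.75, the lowest without the 48 h library at 16.2 FPKM).

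**Figure D3:**
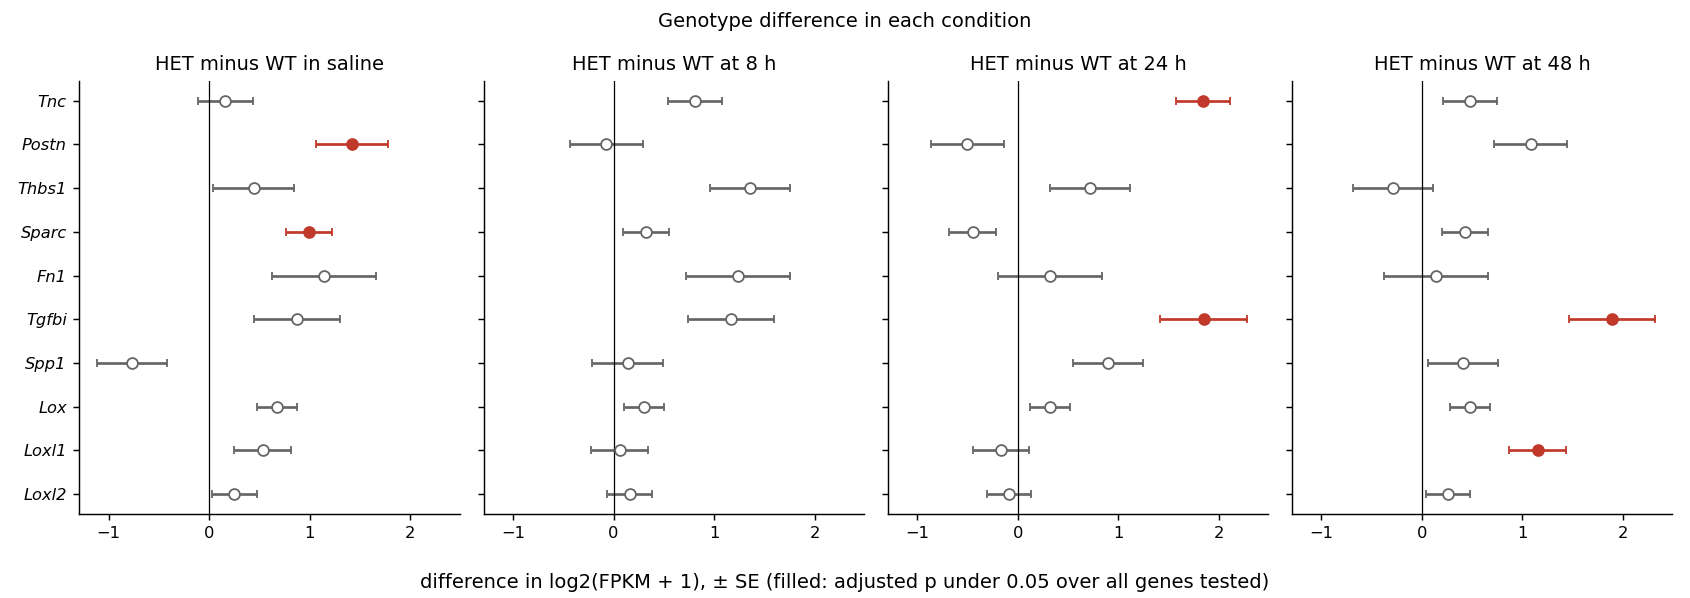
HET minus WT in log2(FPKM + 1) ± SE for each gene in saline and at 8 h, 24 h and 48 h, with filled points where the adjusted p over all genes tested was under 0.05. Filled points are Postn and Sparc in saline, Tnc and Tgfbi at 24 h, and Tgfbi and Loxl1 at 48 h, all to the right of 0.

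Marker lists of other cell types differed between the same groups. In saline, summed adipocyte markers came to 248 to 567 FPKM in HET and 42.5 to 116 in WT, and all 7 markers had a positive difference, with 1 of 7 called. The mean log2 level of the macrophage list was 3.705 to 4.731 in HET and 2.7 to 3.596 in WT (2 of 12 called higher), and that of the stellate and fibroblast list 3.055 to 3.372 in HET and 2.499 to 2.765 in WT (1 of 11 tested called higher). Over all genes tested, 1.15% were called higher in HET in saline. The mesothelial list ranged over 1.899 to 3.001 in HET and 0.909 to 1.725 in WT. With the adipocyte list mean as a covariate the saline difference of Postn was 0.87, beside 1.42 without it, and that of Sparc 0.52, beside 0.99. The parts of the other lists in these differences were not tested.

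At 24 h the adipocyte list stood the other way, at a mean log2 of 1.665 to 3.205 in HET and 2.743 to 4.654 in WT, and 1 of 11 stellate markers tested was called higher and 1 lower in HET. Macrophage markers at 24 h ranged over 5.459 to 5.869 in HET and 4.77 to 5.51 in WT, with 1 of 12 called higher. At 48 h they ranged over 5.504 to 6.227 in HET and 3.686 to 5.517 in WT, and 7 of 12 were called higher. Over all genes tested, 3.5% were called higher and 3% lower in HET at 24 h, and 5.85% higher at 48 h. The WT 48 h library with the lowest Tgfbi and Loxl1 stood apart from the other two in several lists. It had the lowest sums of macrophage markers (301 FPKM beside 1030 and 634), adipocyte markers (40.5 beside 189 and 104), mesothelial markers (4.6 beside 22.4 and 13.7) and B cell markers (0.49 beside 34.8 and 5.22), and the highest acinar sum. Stellate markers overlapped at 48 h, at 3.606 to 3.866 in HET and 3.44 to 3.763 in WT, while the acinar list was 4.491 to 8.14 in HET and 9.214 to 10.159 in WT. That acinar mean covers 8 of 18 listed genes, since the others had a group treated as missing. Ctrb1 and Amy2a5, listed at 0 in all 24 libraries, are among the 8, so the mean understates the acinar level and its genotype difference. The part of these cell types in the differences of Tgfbi and Loxl1 was not tested. Platelets also carry thrombospondin 1. The summed level of 8 platelet markers was 42.9 to 58.5 FPKM in HET and 29.6 to 41.9 in WT at 24 h, and 18.6 to 25.2 in HET and 9.92 to 11.8 in WT at 8 h. Pf4, at up to 56.6 FPKM, made up most of these sums. No other marker of the 8 exceeded 1.66 FPKM, and Gp9 was at 0 in all 24 libraries. Of the 2 that passed the filter, 0 were called in HET against WT at 8 h or 24 h. The part of platelets in the Thbs1 levels was not tested.

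**Figure D4:**
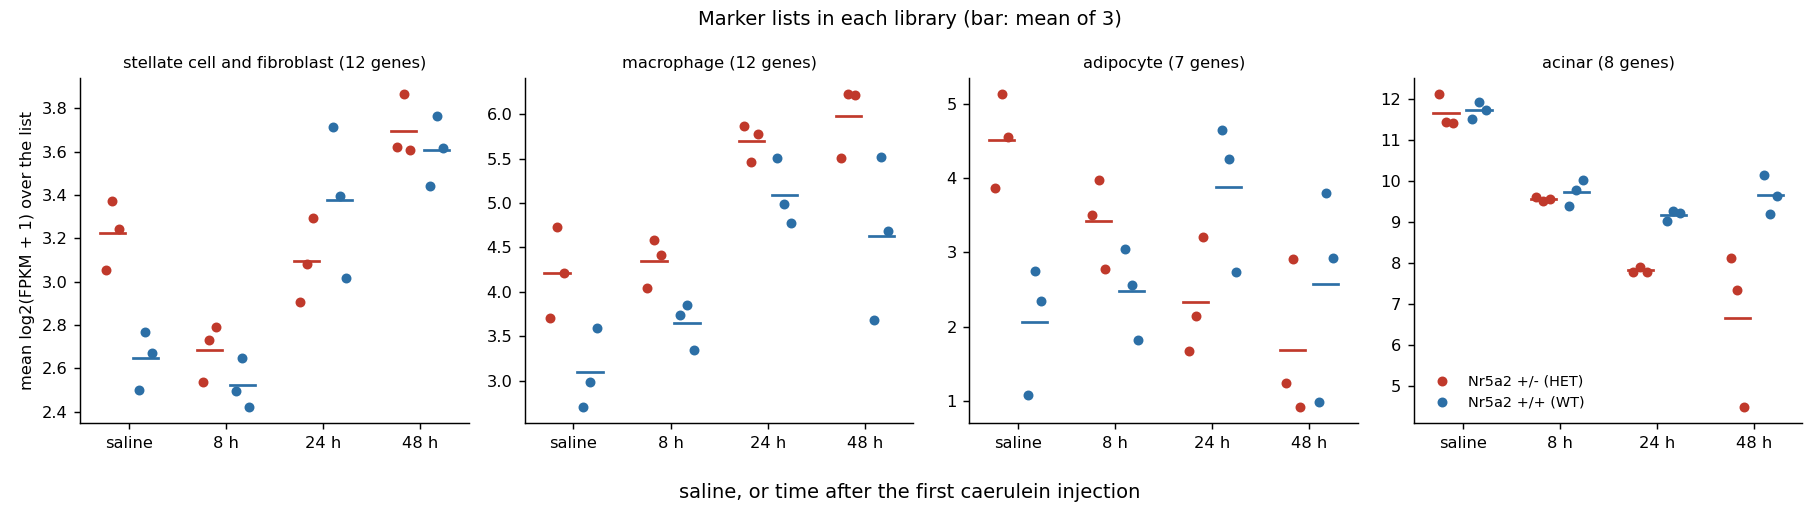
Mean log2(FPKM + 1) of 4 marker lists in each library by condition, HET (red) left of WT (blue), with a bar at the mean of 3 libraries. In saline the adipocyte list is at 3.869 to 5.137 in HET and 1.081 to 2.749 in WT, and at 48 h the acinar list of HET lies below that of WT. The acinar mean covers 8 of 18 listed genes, among them Ctrb1 and Amy2a5, listed at 0 in all 24 libraries.

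Likeness among the 10 genes varied widely. Over 24 libraries the Pearson r of log2(FPKM + 1) was 0.95 for Postn with Sparc, Postn with Loxl2, and Tnc with Lox. It was 0.21 for Thbs1 with Sparc and 0.23 for Thbs1 with Spp1. These values describe libraries that share groups and times, and carry no test. Among 12423 other genes, those most like Sparc were Col1a2 and Col3a1 (0.97 each), those most like Postn were Col5a2 (0.96) and Col1a1 (0.95), and those most like Loxl2 were Col5a2 (0.97) and Fkbp10 (0.96). Tnc and Lox were each other's near neighbours together with Col8a1 (0.96 with Tnc and 0.95 with Lox).

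Other members stood beside other kinds of gene. Among the genes most like Thbs1 were F3 (0.95), which encodes tissue factor, and Inhba (0.90). Among those most like Tgfbi were C5ar1 (0.98) and Ccr1 (0.96), genes known from myeloid cells. Loxl1 was most like Olfml3 (0.95) and Plat (0.94), followed by the complement gene C1qb (0.91). Fn1 was most like Vim (0.90), and Spp1 most like Slc37a2 (0.93).

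**Figure D5:**
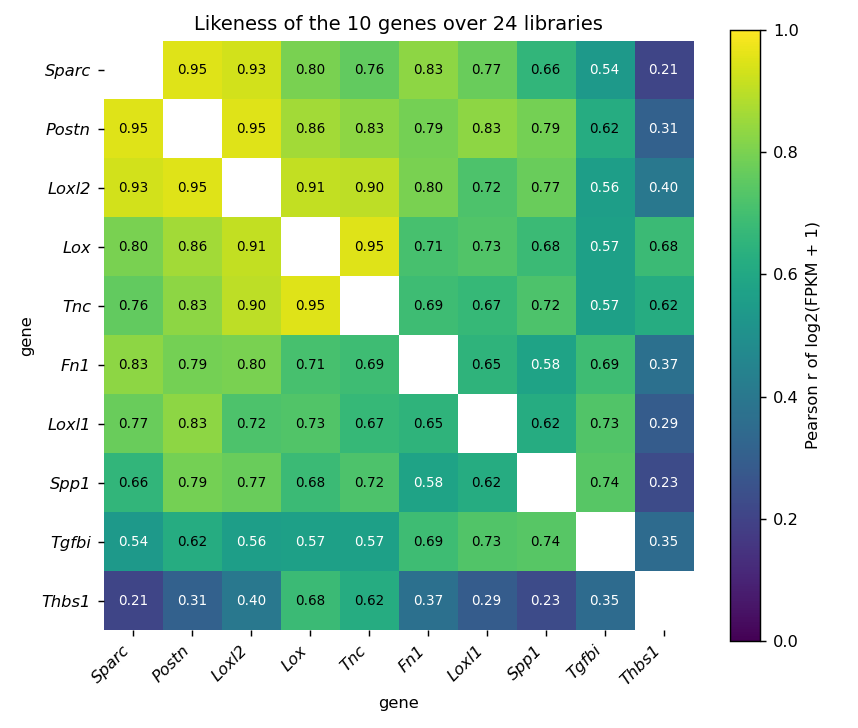
Pearson r of log2(FPKM + 1) between each pair of the 10 genes over 24 libraries, from dark (0) to light (1). Sparc, Postn, Loxl2, Lox and Tnc share values of 0.76 or more, and the row of Thbs1 falls to 0.21.

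Collagen and elastic fibre genes, among them genes of lysyl oxidase substrates, were counted together. Of 10 such genes, 2 were higher and 2 lower in HET at 24 h against saline, with a median difference of 0.28, and 9 were higher in WT, with a median of 1.53. The shares of all genes were 23.9% higher and 19.8% lower in HET, and 20.5% higher in WT. All 10 were higher at 48 h than at 8 h in both genotypes, among them Col1a1 (4.19 ± 0.35) in HET and Col5a2 (2.73 ± 0.25) in WT, beside 23.4% of all genes in HET and 22.5% in WT. At 48 h, 5 of 10 were higher in HET than in WT, beside 5.85% of all genes, with Col1a1 at 1.41 ± 0.35 (adjusted p = 0.0142), Col6a3 at 1.18 ± 0.30 and Col1a2 at 1.13 ± 0.31. At 24 h Col6a2 (-0.93 ± 0.22, adjusted p = 0.0154) and Col6a1 (-0.93 ± 0.24) were lower in HET, as were 3.0% of all genes.

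Other genes of collagen processing and crosslinking were counted from a list of 22, of which 19 passed the filter. At 24 h against saline 9 were higher and 1 lower in HET, and 11 were higher in WT, including the lysyl hydroxylase Plod2 at 1.58 ± 0.26 in HET and 1.53 ± 0.26 in WT. Among all genes 23.9% were higher and 19.8% lower in HET, and 20.5% were higher in WT. From 8 h to 48 h 11 were higher and 4 lower in HET, and 10 higher and 3 lower in WT, led in both by Bmp1, the protease that cuts the propeptides of procollagen and of lysyl oxidase (2.13 ± 0.21 in HET and 1.49 ± 0.21 in WT). Shares over all genes were 23.4% higher and 28.6% lower in HET, and 22.5% and 27.4% in WT. At 48 h 5 were higher in HET than in WT, beside 5.85% of all genes, among them the collagen chaperone Serpinh1 (1.09 ± 0.24, adjusted p = 0.00578) and Plod2 (1.00 ± 0.26). In saline the prolyl hydroxylation partner Crtap was higher in HET (1.02 ± 0.22, adjusted p = 0.021), as were 1.15% of all genes.

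Relatives of the matricellular members came next. Of 22 listed, 17 passed the filter, and at 48 h against 8 h 6 were higher and 1 lower in HET, and 7 higher and 1 lower in WT. Over all genes tested 23.4% were higher and 28.6% lower in HET, and 22.5% higher and 27.4% lower in WT. Thbs2, a thrombospondin that limits vessel growth, rose by 2.06 ± 0.18 in HET and 1.78 ± 0.18 in WT over this interval, and Fbln2 by 2.52 ± 0.26 in HET and 2.47 ± 0.26 in WT. In HET against WT 0 were called higher and 2 lower at 24 h, where 3.5% and 3% of all genes were. At 48 h 1 was higher, Thbs4 (1.26 ± 0.29, adjusted p = 0.00814), where 5.85% of all genes were. There 3 were lower, among them Fbln5 (-0.69 ± 0.18, adjusted p = 0.0179), where 6.37% of all genes were. At 24 h against saline 2 were higher and 7 lower in HET, with a median difference of -0.36. In WT 2 were higher and 2 lower, with a median of 0.27. The shares of all genes were 23.9% higher and 19.8% lower in HET, and 20.5% and 18.7% in WT. Vitronectin (Vtn) fell over this interval in HET (-5.15 ± 0.70) and in WT (-2.48 ± 0.70).

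Receptors for these proteins included integrins, syndecans and CD44. Of 18 listed, 16 passed the filter, and 9 were higher and 0 lower in HET at 24 h against saline, and 10 higher and 1 lower in WT. Over all genes tested 23.9% were higher and 19.8% lower in HET, and 20.5% higher and 18.7% lower in WT. The hyaluronan and osteopontin receptor Cd44 rose by 3.02 ± 0.31 in both genotypes, and Sdc1, a heparan sulfate proteoglycan, by 2.98 ± 0.27 in HET and 2.54 ± 0.27 in WT. At 48 h against 8 h, 5 receptors were higher and 6 lower in HET, and 4 higher and 4 lower in WT. Among all genes 23.4% were higher and 28.6% lower there in HET, and 22.5% and 27.4% in WT. The thrombospondin receptor Cd47 was higher in HET than in WT at 24 h (0.94 ± 0.17, adjusted p = 0.00376) and at 48 h (0.79 ± 0.17, adjusted p = 0.00677). The fibronectin receptor chain Itga5 was higher in HET at 24 h (0.64 ± 0.16) and at 48 h (0.50 ± 0.16). Of 15 genes listed for the TGF-beta pathway, 2 were higher in HET at 48 h, Tgfbr2 (0.91 ± 0.22) and Tgfb1 (1.02 ± 0.25), and Ltbp3 was lower at 24 h (-0.50 ± 0.13). Among all genes 5.85% were higher in HET at 48 h and 3% lower at 24 h. These lists, too, were chosen with earlier results known.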

How the data were processed

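The authors deposited 1 table of normalised expression per Ensembl gene in 24 libraries, taken here as FPKM from the tools listed and the values, since no unit stands in its header. Per the submitters' processing notes, the tools were CASAVA 1.8, Bowtie, Cufflinks 2.0.2 and Cuffnorm, on mouse build mm9, with no role or order stated. RNA integrity numbers were 6.6 to 9.2, per the labels. Libraries were numbered in accession order, and no label pairs animals.

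A gene was tested when 3 or more of the 24 libraries held 1 FPKM or more. Values were taken as log2(FPKM + 1) and fitted with 1 mean per group in limma 3.58.1 (R 4.3.3), with trend and robust moderation. A group at 0 in all 3 libraries, where another group had 100 FPKM or more in each, was treated as missing (68 combinations of gene and group, none in a member). P-values were adjusted by Benjamini-Hochberg over every gene tested in a comparison. The fit was tested on simulated data. Depth in reads is unknown. Low values of genes with a single annotated transcript stepped in multiples, and 73.2% to 80.5% of them lay within 0.1 of a whole number of fragments. That put 1 fragment over 1 kb at 0.0208 to 0.324 FPKM and gave the estimated fragments quoted, which assume the longest coding transcript in GRCm38.

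Summed FPKM was 217205 to 1400108 per library, of which digestive enzyme and Reg genes held 2.82% to 58.43%. Figures were drawn with matplotlib 3.10.9 from tables made with pandas 2.3.3 and numpy 2.4.6 in Python 3.11.15. The members and lists were chosen with earlier results of these data known. The text names all 10 members, up to 3 genes per pathway list and comparison by smallest adjusted p, marker genes at or near 0, and for each member the 3 most alike genes or fewer, since some items are not reported here. Alternatives were another pseudocount, no filter, zeros kept, 2 other scalings, the spread of the compared groups alone, plain moderation, an adipocyte covariate and each library left out in turn. Sequences are RefSeq's on GRCm38.p6, and mm9 coordinates were not used.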

Additional observations from a re-analysis of the deposited data

Results flagged for a closer look

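For 2 genes the change at 24 h against saline differed between genotypes by the test of the difference itself (limma, adjusted over all genes tested). The Tnc difference was 1.68 on the log2 scale, higher in HET, and without single libraries it ranged from 1.52 to 1.97. That scale adds 1 to FPKM, which compresses the Tnc change more in WT than in HET and so enlarges the difference. The Sparc difference was -1.44, lower in HET, and without single libraries it ranged from -1.75 to -1.25. The Tnc call was lost without each of 4 libraries and the Sparc call without each of 6 of the 12 libraries involved, with adjusted p up to 0.0707 for Tnc and 0.0695 for Sparc in those fits. With a pseudocount of 0.1 (1.59, adjusted p = 0.121) or the adipocyte covariate (1.11, adjusted p = 0.316) the Tnc call was also lost. The adipocyte covariate also removed the Sparc call (-0.67, adjusted p = 0.406). So did scaling without enzyme and Reg genes (-1.27, adjusted p = 0.317) and a spread from 4 groups only (adjusted p = 0.143). The Sparc difference includes the saline values that were known when the genes were chosen.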

How the results depend on the processing

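No paired analysis was possible because the labels give no replicate numbers shared between animals. Of the 10 members, 2 were called in HET against WT in saline, and the count was 3 with a pseudocount of 0.1, 1 with no filter, 0 in the scaling without enzyme and Reg genes, 0 when the spread came from the compared groups alone, 0 with the adipocyte covariate, and 0 to 4 without single libraries. It was 0 without WT saline library 1 or 2 or HET saline library 2 or 3. At 48 h the count of 2 was 5 in that scaling, where the median of all genes was 0.40, 0 with the spread of the groups alone, 4 with the covariate, and 0 to 3 without single libraries (0 without WT library 1 or HET library 3). For HET at 8 h against saline, 6 calls became 3 in that scaling. For the genotype difference in the 24 h response, 2 calls became 1 with a pseudocount of 0.1, 1 in that scaling, 1 with the spread of the groups alone, 0 with the covariate and 0 to 3 without single libraries. For the 48 h against 8 h response, 0 calls became 1 with the covariate and 0 to 2 without single libraries. At 24 h the HET against WT calls of Tnc and Tgfbi were kept in every alternative run. The number of all genes called also moved between these settings, over the ranges given below. A changed count of members is therefore not a result about the members alone. The causes of these shifts were not tested.

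Signs turned only for differences that were not called. With the covariate, HET against WT was -0.14 for Tgfbi and -0.16 for Loxl1 in saline, and for Loxl1 -0.21 at 8 h and 0.27 at 24 h. HET at 8 h against saline was 0.27 for Fn1 and 0.21 for Loxl1, and the difference in 24 h response was -0.23 for Thbs1, 0.46 for Fn1 and 0.43 for Loxl1. In the scaling without enzyme and Reg genes, HET against WT was 0.05 for Postn at 8 h, 0.07 for Loxl2 at 24 h and 0.19 for Thbs1 at 48 h. There, HET at 48 h against 8 h was 0.46 for Thbs1, HET at 8 h against saline was 0.03 for Fn1 and 0.02 for Loxl1, and the difference in 48 h response was 0.19 for Tnc.

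Without single libraries, HET against WT spanned -0.32 to 0.26 for Postn, -0.21 to 0.35 for Spp1 and -0.02 to 0.14 for Loxl1 at 8 h. It spanned -0.12 to 0.62 for Fn1 and -0.19 to 0.06 for Loxl2 at 24 h, and -0.74 to 0.13 for Thbs1 and -0.04 to 0.28 for Fn1 at 48 h. HET at 24 h against saline spanned -0.13 to 0.34 for Sparc, and WT at 48 h against 8 h -0.13 to 0.98 for Tgfbi. Against saline, WT at 8 h spanned -0.08 to 0.49 for Postn, -0.59 to 0.31 for Fn1 and -0.29 to 0.01 for Loxl2, and HET at 8 h -0.80 to 0.42 for Fn1 and -0.29 to 0.13 for Loxl1. The difference in 24 h response spanned -0.22 to 0.59 for Thbs1, and that in 48 h response -0.09 to 0.67 for Spp1 and -0.04 to 0.23 for Loxl2.

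Over all genes, the alternatives, single libraries left out included, called 1 to 437 in saline (303 as reported), 4 to 35 at 8 h (28), 254 to 933 at 24 h (836), 26 to 3508 at 48 h (1572), 4 to 620 for the difference in 24 h response (297) and 6 to 368 for that in 48 h response (93). Values of Tnc in saline rest on few estimated fragments, and low depth and low expression cannot be told apart there.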
